A study of Mus musculus with 12 samples.

Results

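The 300 circRNA probes with the highest average signal in mouse left ventricle (LV) were described across 12 hearts, as 2.11% of the 14236 circRNA probes on the Arraystar mouse circRNA microarray. They were chosen by ranking every circRNA probe on its level, the log2 intensity minus the 75th percentile of circRNA probe intensity on the same array, averaged over the 12 arrays with all spots used. The hearts came from C57BL/6J mice of 4 groups, with 3 mice and 3 arrays each, and every mouse carried the GRK-beta1AR transgene, a beta1-adrenergic receptor that lacks its GRK phosphorylation sites and is overexpressed in cardiomyocytes. The groups were vehicle GRK-beta1AR TG (vehicle TG), isoproterenol-treated GRK-beta1AR TG (ISO TG), vehicle GRK-beta1AR/miR-150 DTG (vehicle DTG) and isoproterenol-treated GRK-beta1AR/miR-150 DTG (ISO DTG), where DTG mice also carried a miR-150 transgene under the CAG promoter, which is active in most cell types and not only in cardiomyocytes. Treatment lasted 1 week, given by mini-osmotic pump per the study's methods and by injection per the deposited design text. Each group held 1 female and 2 male mice of 9 to 12 weeks, and non-transgenic mice were not analysed here. The female was replicate 1 in vehicle TG, ISO TG and vehicle DTG and replicate 3 in ISO DTG, and sex did not enter the fits.

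CircRNAs are closed loops formed when a splice donor joins an upstream splice acceptor, and most derive from exons of protein-coding genes. Without free ends they resist exonucleases, so they accumulate in long-lived cells such as cardiomyocytes, and a few loops can outnumber most others. RNase R, an exonuclease, was used before labeling to remove linear RNA, and each probe spans the junction of its loop. Isoproterenol is a beta-adrenergic agonist that drives cardiac remodelling, GRK phosphorylation of the beta1-adrenergic receptor recruits beta-arrestin, and miR-150 is a microRNA that represses its targets in heart and blood cells. Brightness depends on the probe and its labeling as well as on the amount of RNA, so the ranks below order signals and not molecules. The files used here give the probes no circRNA name, host gene or sequence, and the members are therefore named by probe identifier.

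All 300 probes were well above background on all 12 arrays. Their dimmest spot read 204 intensity units, on replicate 1 of ISO TG, against a brightest negative control spot of 61.4 on the same array, and 0 circRNA spots were saturated. The software marked 23 members as outlier spots on at least 1 array, and these spots were left out of the tests. ASCRP4013392, ASCRP4013296, ASCRP4007547 and ASCRP4006768 carried the mark on all 12 arrays and had no test, and ASCRP4007548 carried it on 11. The linear RNA probes held 0 of the listed markers of cardiomyocytes, fibroblasts, endothelial cells, leukocytes and blood, so the labelled tissue was not checked against markers. In whole ventricle, fewer cells of a type and less RNA per cell cannot be told apart.

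The members held most of the circRNA signal. Summed intensity of the 300 probes was 67.0%, 70.6% and 50.9% of all circRNA probe intensity in vehicle TG, 75.8%, 74.3% and 53.8% in ISO TG, 70.0%, 70.6% and 65.8% in vehicle DTG and 68.8%, 72.4% and 69.3% in ISO DTG. The share was thus between 65.8% and 75.8% on 10 arrays and lower on replicate 3 of vehicle TG and replicate 3 of ISO TG. The next 300 probes by rank held 3.84% to 6.45% per array.

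The group means were 62.8% ± 10.5 (SD, n = 3) in vehicle TG, 68.0% ± 12.3 in ISO TG, 68.8% ± 2.62 in vehicle DTG and 70.2% ± 1.94 in ISO DTG. ISO TG was 5.15 percentage points above vehicle TG (two-sided exact permutation test, p = 0.5, adjusted p = 0.8 over the 4 comparisons). ISO DTG was 2.22 points above ISO TG (exact p = 1.0), 1.37 points above vehicle DTG (exact p = 0.6), and vehicle DTG was 6.00 points above vehicle TG (exact p = 0.6). With all spots used, none of these 4 differences exceeded the larger SD of the groups compared, and 3 arrays against 3 cannot give an exact p below 0.1. These SDs are between arrays, and marked spots on replicate 3 of ISO TG enter that of ISO TG, as given below.

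**Figure D1:**
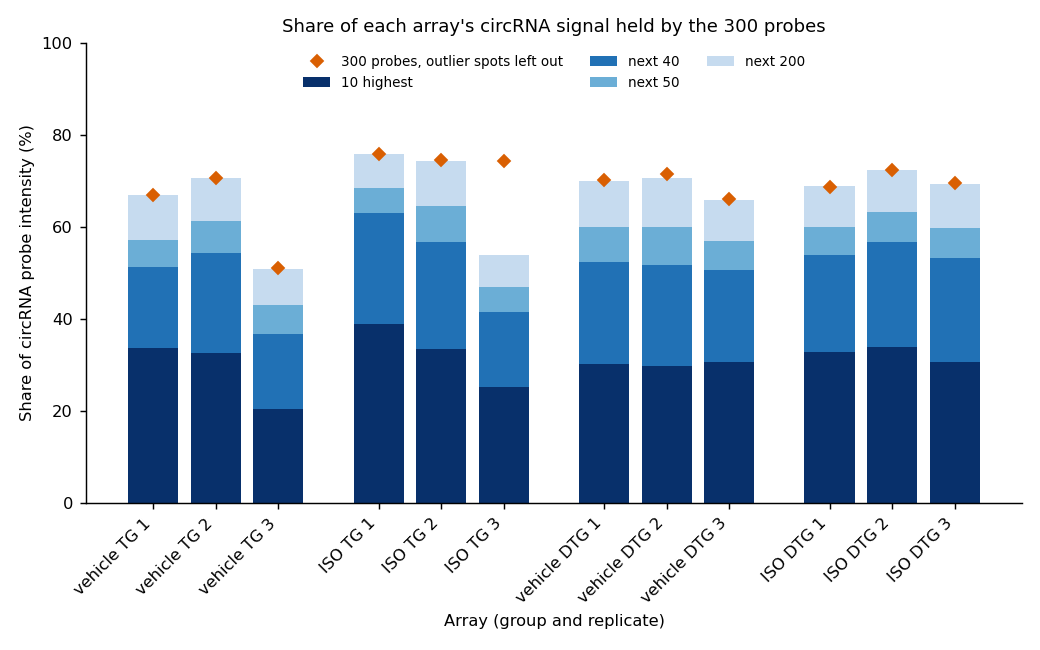
Stacked bars give the share of each array's summed circRNA probe intensity (%, all spots) held by the 10 highest members, the next 40, the next 50 and the last 200, for the 12 arrays in their 4 groups, and orange diamonds give the share of the 300 probes with outlier spots left out. Replicate 3 of vehicle TG is low by both measures (50.9% and 51.0%), whereas replicate 3 of ISO TG is low only with all spots (53.8% against 74.3%).

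The low share of ISO TG replicate 3 came from spots outside the 300 probes. On that array 9 circRNA spots of ranks 1421 to 11085 read 12211 to 335556 intensity units, each at least 100 times the median of the other arrays, and together they held 27.4% of its circRNA signal. The software marked all 9 as outliers. The 7 brightest lay in columns 54 and 55 of the array between rows 134 and 149. With outlier spots left out, its share was 74.3%, next to 75.8% and 74.6% on the other ISO TG arrays, and the ISO TG mean became 74.9% ± 0.779 (SD, n = 3). On those values all 3 ISO TG arrays lay above all vehicle TG arrays (12.0 points, exact p = 0.1) and above all ISO DTG arrays, which were 4.68 points lower (exact p = 0.1), and both adjusted p were 0.2.

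Vehicle TG replicate 3 was low also with outlier spots left out, at 51.0%. Its members summed to 5104800 intensity units, the highest of the 12 arrays (3095130 to 4442740 on the others), but its circRNA spots outside the members summed to 4929200, against 986524 to 1979610 on the 10 arrays other than ISO TG replicate 3. The 75th percentile of its circRNA probe intensity was 424, against 80.3 to 171 on the other arrays. The median of its linear RNA probes, the RNA that RNase R is meant to remove, was 113 intensity units, against 21.3 to 37.2 on the others. Its median local background of 20.5 lay within the 17.5 to 22.5 of the other arrays. The part of linear RNA in the low share was not tested.

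Within the members the signal was concentrated in few probes. The 10 highest held 20.4% to 38.8% of all circRNA intensity per array, 46.0% of the members' signal on average, and 13 members made up the first 50% of it. The brightest, ASCRP4006710, alone held 5.91% on average, while the member of rank 300 held 0.0304%. Over arrays, 7 members averaged more than 100000 intensity units, 60 more than 10000 and all 300 more than 1000.

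ASCRP4006710 had the highest average level, 11.23. Its levels were 11.35, 11.27 and 9.73 in vehicle TG, 11.89, 11.69 and 11.63 in ISO TG, 11.07, 11.21 and 11.02 in vehicle DTG and 11.24, 11.51 and 11.16 in ISO DTG. It was 9.73 on vehicle TG replicate 3 and at least 11.02 on every other array, and its 3 ISO TG values were the highest of the 12. Before scaling, its intensities were 335465, 326093 and 359925 in vehicle TG and 305695, 352746 and 331650 in ISO TG, and the groups overlapped. The 75th percentile used for scaling averaged 97.1 intensity units in ISO TG, the lowest of the 4 groups, and 228 in vehicle TG. ASCRP4006342, second at 11.03, read 11.00, 11.11 and 9.82 in vehicle TG, 11.65, 11.31 and 11.48 in ISO TG, 11.01, 11.04 and 10.64 in vehicle DTG and 10.96, 11.34 and 11.01 in ISO DTG. The 3 ISO TG values again lay above those of vehicle TG, and ISO TG and ISO DTG overlapped.

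ASCRP4004008, ASCRP4012684 and ASCRP4011502 followed with averages of 10.83, 10.46 and 10.42. These 5 probes were the 5 brightest on 10 arrays, 4 of them were on vehicle TG replicate 3 and 2 on ISO TG replicate 3, where marked spots ranked above them. The next 5 were ASCRP4010888 (9.69), ASCRP4005038 (9.42), ASCRP4007626 (9.39), ASCRP4005609 (9.33) and ASCRP4013042 (9.33). ASCRP4013042 read 9.81, 9.51 and 7.01 in vehicle TG, 10.64, 9.97 and 9.69 in ISO TG, 9.10, 9.15 and 9.15 in vehicle DTG and 9.32, 9.33 and 9.29 in ISO DTG, so that vehicle TG replicate 3 at 7.01 lay far below the other 11 arrays.

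**Figure D2:**
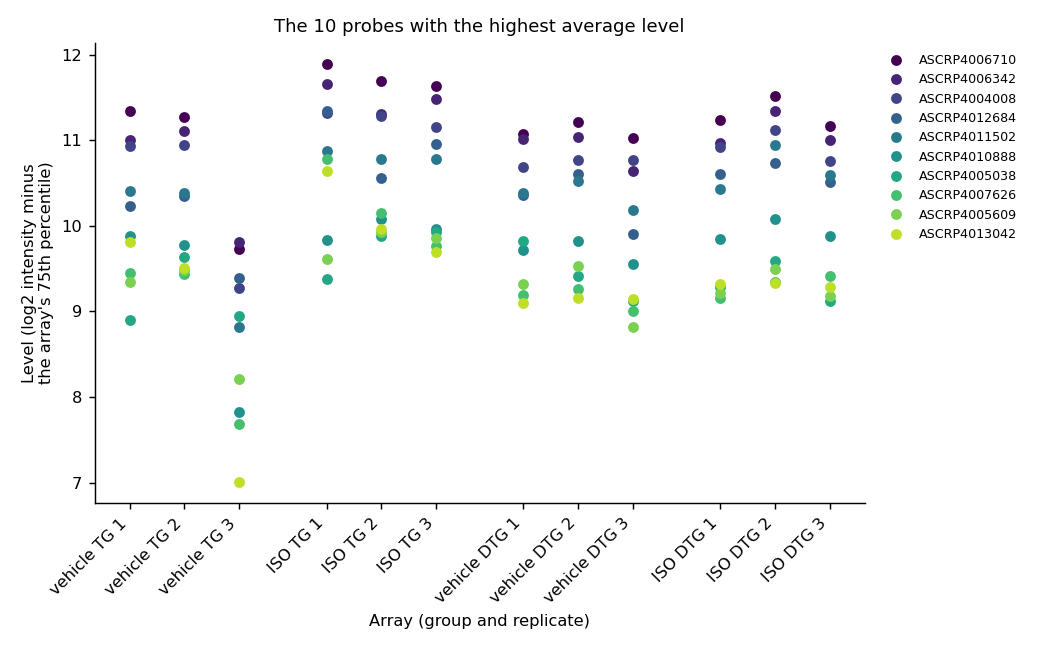
Points give the level (log2 intensity minus the array's 75th percentile) of the 10 probes with the highest average, 1 colour per probe, on the 12 arrays in their 4 groups. Vehicle TG replicate 3 has the lowest level of 9 of the 10 probes, among them ASCRP4013042 at 7.01.

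The choice of the members was stable when single arrays were left out and less so between arrays. Leaving out 1 array at a time kept 291 to 299 of the 300 members, with the 291 reached without vehicle TG replicate 3. Ranking by mean share of linear intensity kept 286, and averaging with outlier spots left out kept 296. Of the 300 members, 128 were among the 300 brightest circRNA probes on all 12 arrays and 280 on at least 6. Vehicle TG replicate 3 had 182 of them among its own 300 brightest, against 232 to 281 on the other arrays. At the threshold, ASCRP4006646, ASCRP4010128 and ASCRP4003904 (the last 3 members) averaged 3.30, 3.30 and 3.29, and ASCRP4007182, ASCRP4008439 and ASCRP4002944 (the first 3 probes outside) averaged 3.28, 3.27 and 3.26, so the threshold lies in a continuous series of levels.

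Spread between arrays differed by group. The median SD of a member over the 3 arrays of a group was 0.79 in vehicle TG, 0.55 in ISO TG, 0.28 in vehicle DTG and 0.20 in ISO DTG on the log2 scale, and the same medians over all 13046 tested probes were 0.69, 0.39, 0.25 and 0.18. Vehicle TG had the largest SD of the 4 groups for 182 members, ISO TG for 75, vehicle DTG for 40 and ISO DTG for 3. Without replicate 3 the median was 0.33 in vehicle TG, 0.41 in ISO TG and 0.17 in vehicle DTG (n = 2 each). Vehicle DTG replicate 3 was on the slide of the ISO DTG arrays and not on that of its own group. The vehicle DTG spread thus includes a change of slide, and that of ISO DTG does not. Pooled over groups, the median member SD was 0.60, against 0.56 in the 300 probes next in rank and 0.48 over all tested probes, so the brighter probes were not the more precisely repeated ones on this scale. The software's own error for a member spot was 10.0% of its signal at the median of each array. Membership came from these same values, and the spread is given as a description with no test.

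Spearman correlations across the 300 members, which share each array's labeling and so are no replicates of a condition, ranged over 0.49 to 0.77 between arrays of vehicle TG, 0.74 to 0.85 in ISO TG, 0.80 to 0.93 in vehicle DTG and 0.93 to 0.96 in ISO DTG. Groups were not the only neighbours. Vehicle DTG replicate 3 correlated at 0.91 to 0.95 with the ISO DTG arrays and at 0.80 and 0.89 with its own group, and by the identifier of the scan image it was on slide 1 with the 3 ISO DTG arrays, while the other 8 arrays were on slide 2. Vehicle TG replicate 2 correlated at 0.93 with ISO TG replicate 3 and at 0.94 with vehicle DTG replicate 1, and at 0.77 and 0.68 with the other vehicle TG arrays.

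Relative to each probe's average over 12 arrays, the median member lay at -0.09, 0.12 and -1.08 in vehicle TG, -0.08, 0.58 and 0.38 in ISO TG, 0.11, 0.29 and -0.25 in vehicle DTG and -0.08, 0.28 and 0.07 in ISO DTG. Vehicle TG replicate 3 was the lowest array for 185 members, and 161 members were at least 2-fold below their average there. The highest array was ISO TG replicate 2 for 86 members and ISO TG replicate 1 for 63. Replicate 1 of ISO TG was mixed, with 58 members at least 2-fold below and 39 at least 2-fold above their average. Over the 4 comparisons, the group means of this array median differed by -0.20 to 0.65 (exact permutation p = 0.2 to 1.0).

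**Figure D3:**
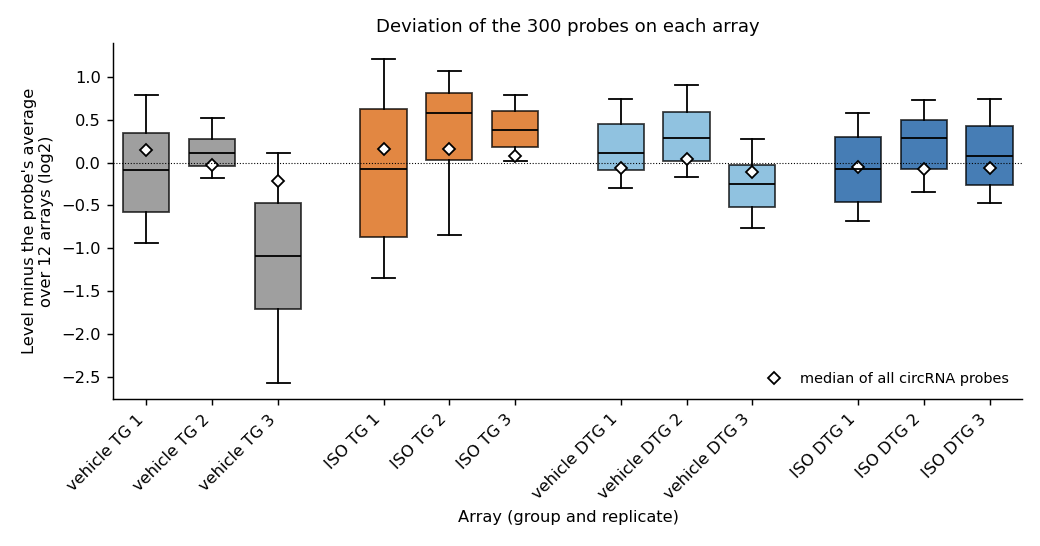
Boxes give the quartiles and median, and whiskers the 10th and 90th percentiles, of the 300 probes' level minus their own average over 12 arrays (log2), for each array in its group colour, and open diamonds give the median of all 14236 circRNA probes. The box of vehicle TG replicate 3 lies lowest (median -1.08), and the vehicle TG and ISO TG boxes differ more among themselves than those of ISO DTG.

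Among members, the smallest SD over the 12 arrays was 0.24, in ASCRP4006338, followed by ASCRP4007518, ASCRP4011947, ASCRP4013645 and ASCRP4012979 at up to 0.30. ASCRP4006338 read 3.89, 4.19 and 3.94 in vehicle TG, 3.69, 3.88 and 4.28 in ISO TG, 4.12, 4.17 and 4.23 in vehicle DTG and 4.5, 4.35 and 4.39 in ISO DTG. Its 3 ISO DTG values were the highest of the 12, and the whole range was 0.80. The largest SD was 1.73, in ASCRP4007241, which read 6.37, 3.47 and 2.49 in vehicle TG, 7.03, 7.38 and 6.03 in ISO TG, 2.24, 6.37 and 4.4 in vehicle DTG and 3.94, 4.65 and 4.36 in ISO DTG. Values from 2.24 to 6.37 occurred within vehicle DTG alone.

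The next 4 by SD, ASCRP4000559, ASCRP4006135, ASCRP4008315 and ASCRP4005182 (SD 1.35 to 1.41), had a shape in common. ASCRP4006135 read 4.53, 4.34 and 0.47 in vehicle TG, 2.18, 2.21 and 4.26 in ISO TG, 4.04, 4.13 and 4.38 in vehicle DTG and 4.86, 4.70 and 4.87 in ISO DTG. In all 4 the lowest value was on vehicle TG replicate 3 (-0.33 to 0.59) and the next lowest on replicates 1 and 2 of ISO TG, with the other 9 arrays higher. They were picked for their SD, so this is a description.

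ISO TG was compared with vehicle TG (comparison I) to ask how 1 week of isoproterenol changed the circRNAs of GRK-beta1AR TG hearts. The median member read higher in ISO TG on the 75th percentile scale and after quantile normalization, and lower after scaling to control probes or normexp background correction. By limma, 74 members were at least 1.5-fold higher with an unadjusted p under 0.05 and 7 were lower, 27.5% of the 295 members tested, against 13.5% of all 13035 tested probes (7.8% higher, 5.71% lower). The median log2 fold change of the members was 0.67, and 0.09 over all tested probes. Before scaling, the median member intensity averaged 2624 ± 781 (SD, n = 3) units in ISO TG and 3561 ± 839 in vehicle TG. No member passed Benjamini-Hochberg adjustment (lowest adjusted p from limma 0.360), and 81 had an unadjusted p under 0.05, against 13.7% of all tested probes. The fit shares 1 spread per probe over the 4 groups, though the members' SD differed by group. With the 6 arrays of I alone, 33 members were higher and 0 lower past the limits, beside 273 and 148 over all tested probes. By the methods' t-test 17 were higher and 0 lower, beside 174 and 119. The groups did not overlap for 64 members, all higher in ISO TG, against 9.99% of all tested probes (6.24% higher, 3.74% lower). When the 300 were instead chosen on the 6 DTG arrays, which comparison I does not use, 276 members were shared, and 68 of the chosen probes were higher and 8 lower with a median of 0.65.

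The difference in I went with brightness. Of the 100 brightest members 46 were higher and 1 lower past these limits, of the next 100 17 and 3, of the last 100 11 and 3, and of the 300 probes next in rank 36 and 20. The band medians were 0.85, 0.61, 0.52 and 0.29 in this order. The 10 brightest members had log2 fold changes of 0.57 to 1.37 on this scale, but 5 of the 10 lay below 0 after quantile normalization and 5 after scaling to the circRNA control probes, while 9 of the 10 stayed above 0 with normexp and all 10 with slide as a block or without vehicle TG replicate 3. ASCRP4007626, the member with the largest of these 10 values, read 9.44, 9.44 and 7.69 in vehicle TG, 10.78, 10.15 and 9.76 in ISO TG, 9.19, 9.27 and 9.00 in vehicle DTG and 9.16, 9.34 and 9.41 in ISO DTG, and its log2 fold change was 1.37 ± 0.44 (SE) (limma, unadjusted p = 0.00849, adjusted p = 0.360). The 3 ISO TG values were the highest of the 12, and vehicle TG replicate 3 the lowest.

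The direction of the median member in I depended on the scaling, and its size also on 1 array. The median member was 0.21 after quantile normalization (11 higher, 19 lower), -0.23 after scaling to the 14 circRNA control probes (1 higher, 31 lower) and -0.05 after normexp background correction (1 higher, 35 lower). Over all tested probes the counts were 931 higher and 869 lower with quantile normalization, 17 and 3758 with control probes, and 3829 and 507 with normexp. Those scalings also moved the median of all tested probes, to 0.01, -0.82 and 0.43. Relative to all probes the median member was 0.58 higher on the main scale, and 0.19, 0.59 and -0.48 on the others. The main scale and the control probes each subtract 1 value per array, so 0.58 and 0.59 had to be close and are no separate results. Without vehicle TG replicate 3 the median was 0.33, with 42 members higher and 17 lower, beside 742 and 658 over all tested probes. Without ISO TG replicate 3, 63 members were higher and 24 lower, beside 1469 and 1351, and 6 members passed the adjusted limit. Without both arrays, a choice made after the data were seen, the median was 0.35, with 48 members higher and 55 lower, beside 1591 and 1744. In that fit 64 members passed the adjusted limit. For neither of these fits is the count of all tested probes at the adjusted limit given here. The 6 and the 64 are therefore not read as particular to the members.

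**Figure D4:**
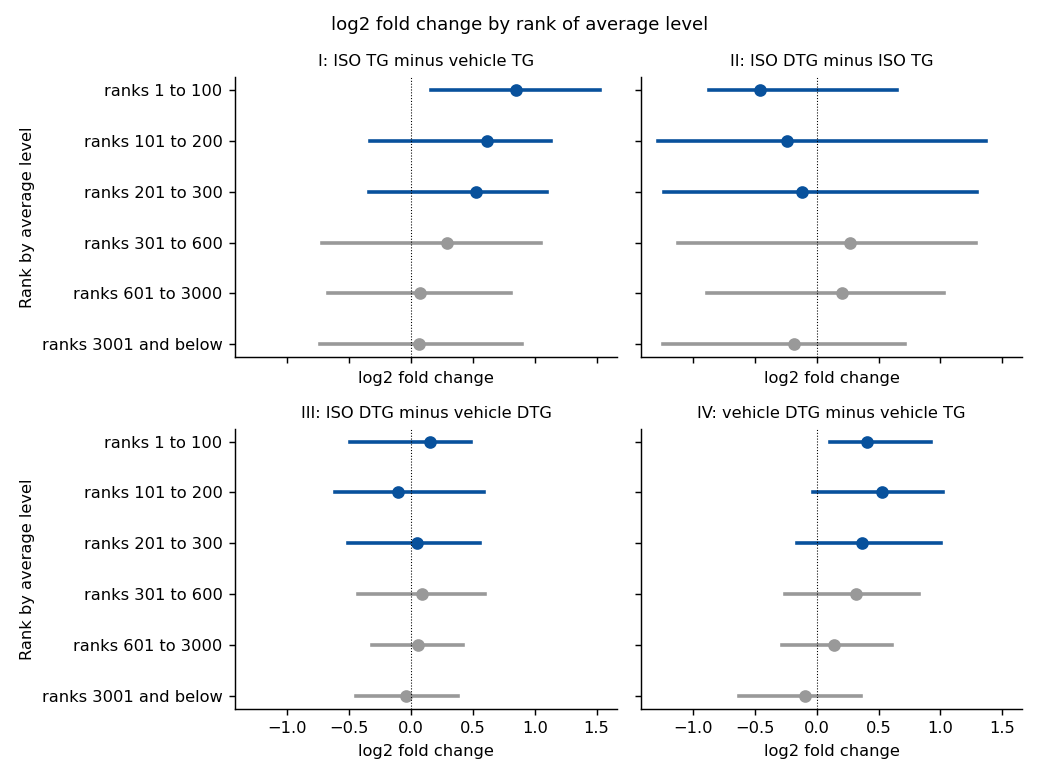
Points give the median and bars the 10th to 90th percentile of the log2 fold change (limma, 75th percentile scale) in each band of rank by average level, blue for the 300 probes and grey for the rest, in comparisons I to IV. In I the medians are 0.85, 0.61 and 0.52 in the 3 blue bands and 0.07 in the lowest grey band. Over all 300 probes the sign of I turned with scaling to control probes (-0.23) and normexp (-0.05), and that of II with normexp (0.32) and with slide as a block (0.35).

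The 3 largest positive differences in I among members past the limits whose groups did not overlap were ASCRP4012657, ASCRP4006634 and ASCRP4014234. ASCRP4012657, rank 47, read 6.38, 6.64 and 5.52 in vehicle TG, 9.04, 7.57 and 6.85 in ISO TG, 6.62, 6.66 and 6.86 in vehicle DTG and 6.82, 7.15 and 6.89 in ISO DTG. All 3 ISO TG values lay above vehicle TG, with replicate 1, the female of that group, far above the other ISO TG arrays. Its log2 fold change was 1.64 ± 0.48 (SE) (limma, unadjusted p = 0.00478, adjusted p = 0.360). It was 0.75 after quantile normalization, 0.73 after scaling to control probes and 0.81 with normexp, each with p above 0.05, and 1.03 without ISO TG replicate 1.

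ASCRP4006634, rank 79, read 5.54, 5.61 and 2.79 in vehicle TG, 6.37, 6.30 and 6.11 in ISO TG, 5.34, 5.51 and 5.40 in vehicle DTG and 5.43, 5.67 and 5.78 in ISO DTG. The ISO TG values were the 3 highest, and vehicle TG replicate 3 stood apart at 2.79. Its log2 fold change was 1.61 ± 0.58 (SE) (unadjusted p from limma = 0.0168). It was 0.69 without vehicle TG replicate 3, and 0.71 after scaling to control probes and 0.89 with normexp, both with p above 0.05. ASCRP4014234, rank 258, read 3.62, 3.39 and 2.36 in vehicle TG, 6.41, 3.96 and 3.83 in ISO TG, 3.17, 3.27 and 3.31 in vehicle DTG and 3.03, 3.17 and 3.06 in ISO DTG. Replicate 1 of ISO TG at 6.41 was far above the rest, its fold change was 1.61 ± 0.57 (SE) (unadjusted p from limma = 0.0161), and without that array or without vehicle TG replicate 3 its p from limma was above 0.05, as it was after scaling to control probes and with normexp. None of the 7 members lower in I had groups that did not overlap.

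ISO DTG was compared with ISO TG (comparison II) to ask how miR-150 overexpression changed circRNAs under isoproterenol. The 3 ISO DTG arrays shared slide 1 and the 3 ISO TG arrays slide 2, so slide and group cannot be told apart in II. By limma, 32 members were higher and 49 lower in ISO DTG past the 1.5-fold and unadjusted limits, 27.6% of 293 tested, close to the 25.4% of all 13025 tested probes (9.34% higher, 16.1% lower). The median log2 fold change was -0.34 in members and -0.11 over all tested probes. No member passed the adjusted limit (lowest adjusted p from limma 0.150; 82 at an unadjusted p under 0.05, against 25.7% of all tested probes). Groups did not overlap for 40 members higher and 91 lower in ISO DTG, against 45.2% of all tested probes (16.8% and 28.4%).

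By brightness, 7 of the 100 brightest members were higher and 8 lower, whereas the 100 dimmest gave 14 and 19, and the median was -0.46 in the former and -0.12 in the latter. The 10 brightest members were all below 0 (-0.93 to -0.02), but 3 of them lay above 0 after quantile normalization, 2 after scaling to control probes, 8 with normexp and 6 with slide as a block. The sign of the median turned under normexp and the slide block. Normexp background correction gave 80 members higher and 1 lower with a median of 0.32, while 1001 of all tested probes were higher and 1888 lower with a median of -0.42. Slide as a block left 2 and 2 with a median of 0.35, beside 73 and 62 over all tested probes. Its slide term rests on vehicle DTG replicate 3, the only slide 1 array outside ISO DTG, set against the other vehicle DTG arrays. The median stayed negative after quantile normalization (-0.04, 43 higher and 37 lower, beside 1515 and 1555 over all tested probes). It did so after scaling to control probes (-0.15, 54 and 32, beside 971 and 977). Relative to all tested probes it was -0.23 on that scale and on the main one. This is given by construction, since both subtract 1 value per array. Both I and II use the ISO TG arrays, so their opposite signs are not independent. The adjusted limit was passed by 46 members without vehicle TG replicate 3, by 31 without ISO TG replicate 3, by 32 with normexp and by 153 with array weights. How many of all tested probes passed the adjusted limit in these fits is not given here. Past the 1.5-fold and unadjusted limits, 1861 of them were higher and 2963 lower in the first fit. The others gave 1785 and 2615, 1001 and 1888, and 2369 and 3816, in this order.

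The largest positive differences in II without overlap were ASCRP4010785, ASCRP4001778 and ASCRP4013657. ASCRP4010785, rank 278, read 3.08, 4.07 and 2.63 in vehicle TG, 1.35, 1.74 and 3.42 in ISO TG, 4.31, 3.96 and 4.25 in vehicle DTG and 4.14, 3.86 and 3.93 in ISO DTG. ISO TG was below ISO DTG on every array, and its replicates 1 and 2 were the 2 lowest of the 12. The log2 fold change was 1.81 ± 0.50 (SE) (limma, unadjusted p = 0.00332, adjusted p = 0.150).

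ASCRP4001778, rank 240, read 3.62, 4.16 and 2.09 in vehicle TG, 1.5, 2.22 and 4.01 in ISO TG, 4.66, 4.17 and 4.15 in vehicle DTG and 4.12, 4.45 and 4.34 in ISO DTG. ISO TG replicates 1 and 2 were low and replicate 3 lay near ISO DTG. Its log2 fold change was 1.73 ± 0.61 (SE) (limma, unadjusted p = 0.0148). ASCRP4013657, rank 87, read 4.68, 5.65 and 5.86 in vehicle TG, 3.31, 3.32 and 5.32 in ISO TG, 5.55, 5.22 and 5.53 in vehicle DTG and 6.04, 5.42 and 5.54 in ISO DTG, with the same 2 ISO TG arrays low. Its log2 fold change was 1.69 ± 0.50 (SE) in II (unadjusted p from limma = 0.00566), beside -1.41 ± 0.50 (SE) in I, which uses the same ISO TG arrays.

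The largest negative differences in II were ASCRP4007241, ASCRP4008132 and ASCRP4001399. ASCRP4007241, given above as the member with the largest SD, differed by -2.50 ± 1.02 (SE) (limma, unadjusted p = 0.0308). After quantile normalization and with normexp its p from limma was above 0.05. ASCRP4008132, rank 100, read 5.47, 4.29 and 3.41 in vehicle TG, 6.81, 7.47 and 5.30 in ISO TG, 4.32, 5.52 and 4.35 in vehicle DTG and 4.13, 4.28 and 4.31 in ISO DTG. ISO DTG values lay within a narrow range and below all ISO TG values, and the difference was -2.29 ± 0.59 (SE) (unadjusted p from limma = 0.00229, adjusted p = 0.150).

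ASCRP4001399, rank 158, read 4.03, 4.24 and 4.22 in vehicle TG, 4.51, 5.63 and 5.20 in ISO TG, 4.63, 5.24 and 3.11 in vehicle DTG and 3.17, 4.19 and 3.89 in ISO DTG. Vehicle DTG replicate 3 and the last 2 ISO DTG arrays were marked as outlier spots, so its fitted difference of -1.95 rests on ISO DTG replicate 1 alone. This difference was -1.54 after scaling to control probes, -1.25 with normexp and -1.37 with outlier spots kept. With slide as a block, the other 5 of these 6 members had a p above 0.05 in II, and for ASCRP4001399 the block could not be fitted, since ISO DTG replicate 1 was its only spot left on slide 1.

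ISO DTG was compared with vehicle DTG (comparison III) to ask what isoproterenol did where miR-150 was overexpressed. Past the limits, 5 members were higher and 2 lower in ISO DTG by limma, 2.39% of 293 tested, against 1.74% of all 13021 tested probes (0.883% higher, 0.86% lower). The median was 0.02 in members and -0.02 over all tested probes, and the lowest adjusted p among members was 1.00 from limma, with 7 members at an unadjusted p under 0.05 against 1.84% of all tested probes. Groups did not overlap for 73 members higher and 15 lower, against 19.5% of all tested probes (11.6% and 7.89%). Within slide 1, which holds a single vehicle DTG array and so gives no test, the median difference was 0.37, with 59 of 289 members at least 1.5-fold higher and 2 lower, beside a median of 0.04 and 1101 higher and 811 lower of 13005 tested probes. Without vehicle DTG replicate 3 the counts were 3 higher and 24 lower, beside 95 and 153 over all tested probes. With normexp they were 22 and 2, beside 145 and 256. With the 6 arrays of III alone 21 members were higher and 9 lower, beside 414 and 332. By the methods' t-test the counts were 18 and 5, beside 296 and 178.

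ASCRP4004367, rank 239, had the largest positive difference in III and read 3.06, 3.86 and 2.32 in vehicle TG, 3.16, 3.64 and 3.85 in ISO TG, 2.99, 3.84 and 3.47 in vehicle DTG and 4.66, 4.19 and 4.53 in ISO DTG. The ISO DTG values were the 3 highest of the 12, with a log2 fold change of 1.03 ± 0.39 (SE) (limma, unadjusted p = 0.0207). ASCRP4010319, rank 166, read 3.82, 4.44 and 3.33 in vehicle TG, 3.71, 4.23 and 4.43 in ISO TG, 3.61, 4.47 and 3.72 in vehicle DTG and 4.97, 4.62 and 4.95 in ISO DTG, again with ISO DTG highest, and differed by 0.91 ± 0.35 (SE) (unadjusted p from limma = 0.0224). ASCRP4010223, rank 262, read 3.35, 3.58 and 2.75 in vehicle TG, 3.75, 3.98 and 3.56 in ISO TG, 2.92, 3.37 and 3.17 in vehicle DTG and 4.10, 3.79 and 4.07 in ISO DTG. Its ISO DTG values overlapped ISO TG but not vehicle DTG, and the difference was 0.83 ± 0.28 (SE) (limma, unadjusted p = 0.0109). After scaling to control probes, all 3 had a p from limma above 0.05, and with slide as a block ASCRP4004367 and ASCRP4010223 had. With quantile normalization and with normexp all 3 stayed under 0.05.

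The other members past the limits in III, named after their values were seen, were ASCRP4006307 (0.73) and ASCRP4010398 (0.72) upward and ASCRP4007459 (-2.38) and ASCRP4001399 (-1.77) downward. The downward pair had outlier spots on 5 and 3 arrays, and their groups overlapped when all spots were read. With outlier spots kept, the count in III was 5 higher and 0 lower, beside 115 and 109 over all tested probes.

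Vehicle DTG was compared with vehicle TG (comparison IV) to ask what miR-150 overexpression did without isoproterenol. By limma, 6 members were higher and 1 lower past the limits, 2.38% of 294 tested, against 2.07% of all 13024 tested probes (0.537% higher, 1.54% lower). Most members lay above 0, 252 of 294, with a median of 0.43 against -0.04 over all tested probes, but without vehicle TG replicate 3 that median was -0.00, and with scaling to control probes, which moved all tested probes to a median of -0.47, it was -0.01. The lowest adjusted p was 0.999 from limma, with 7 members at an unadjusted p under 0.05 against 2.13% of all tested probes, and groups did not overlap for 11 members higher and 2 lower, against 6.08% of all tested probes (3% and 3.08%). Within slide 2, with 2 vehicle DTG arrays, the median was 0.56, beside -0.01 over all tested probes, and slide as a block gave 31 members higher and 1 lower, beside 84 and 113 over all tested probes.

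ASCRP4012494, rank 153, was the 1 member lower past the limits in IV. It read 5.30, 4.99 and 4.41 in vehicle TG, 4.75, 5.43 and 5.36 in ISO TG, 3.38, 3.39 and 3.39 in vehicle DTG and 3.37, 4.29 and 4.65 in ISO DTG. The 3 vehicle DTG values lay between 3.38 and 3.39 and below every TG value, while ISO DTG spanned 3.37 to 4.65, overlapping vehicle TG but lying below every ISO TG value. Its log2 fold change was -1.51 ± 0.36 (SE) (limma, unadjusted p = 0.00125, adjusted p = 0.999), and it kept an unadjusted p under 0.05 and its sign in every alternative run for it (-1.95 to -1.31).

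ASCRP4010157, rank 280, was the only member past the limits and higher in vehicle DTG without overlap. It read 2.27, 3.13 and 2.67 in vehicle TG, 3.41, 4.00 and 3.74 in ISO TG, 3.60, 4.23 and 3.15 in vehicle DTG and 3.04, 3.85 and 3.59 in ISO DTG, and ISO TG overlapped vehicle DTG. Outlier spots on replicates 1 and 2 of ISO DTG did not enter its fit. The log2 fold change was 0.97 ± 0.36 (SE) (limma, unadjusted p = 0.0215). After scaling to control probes and with normexp its p from limma was above 0.05.

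The difference between the isoproterenol responses of the genotypes (III minus I) was negative for most members on the 75th percentile scale and mostly positive past the limits with normexp. By limma, 2 members were at least 1.5-fold higher and 29 lower with an unadjusted p under 0.05, 10.6% of 293 tested, against 4.83% of all 13021 tested probes (1.81% higher, 3.02% lower). The median was -0.73 in members and -0.05 over all tested probes, and 215 of 293 lay below 0. No member passed the adjusted limit (lowest adjusted p 0.737, 31 at an unadjusted p under 0.05, both by limma). Normexp gave 50 members higher and 1 lower, where 525 of all tested probes were higher and 5275 lower. Scaling to control probes gave 5 and 2, beside 389 and 33 over all tested probes, and slide as a block left 0 and 4, beside 73 and 41. Without vehicle TG replicate 3 it was 17 higher and 19 lower, beside 453 and 456.

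ASCRP4013657, given under II, and ASCRP4000470 were the 2 members with a positive difference past the limits, at 1.65 ± 0.71 (SE) and 1.07 ± 0.45 (SE) (limma, unadjusted p = 0.0383 and 0.0372). ASCRP4000470, rank 221, read 3.55, 3.83 and 4.23 in vehicle TG, 2.84, 2.75 and 3.89 in ISO TG, 3.89, 3.84 and 3.75 in vehicle DTG and 4.02, 4.21 and 4.30 in ISO DTG. In both probes ISO TG replicates 1 and 2 were the lowest of the 12 arrays. ASCRP4007459, rank 91, had the most negative difference and read 3.45, 5.36 and 4.78 in vehicle TG, 3.76, 6.44 and 6.06 in ISO TG, 6.21, 6.21 and 4.35 in vehicle DTG and 3.83, 5.41 and 4.94 in ISO DTG.

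The groups of ASCRP4007459 overlapped widely. Outlier spots on ISO TG replicates 1 and 2, vehicle DTG replicate 3 and ISO DTG replicates 2 and 3 left 7 arrays in its fit of -3.91 ± 1.04 (SE) (limma, unadjusted p = 0.00725), and with outlier spots kept its p was above 0.05. ASCRP4001399 followed at -2.72, with ISO DTG replicate 1 as its only ISO DTG spot in the fit, and was at -1.53 with outlier spots kept. ASCRP4008132 was at -2.64 ± 0.84 (SE) (limma, unadjusted p = 0.00863). With normexp and with slide as a block, the p of ASCRP4008132 from limma was above 0.05.

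**Figure D5:**
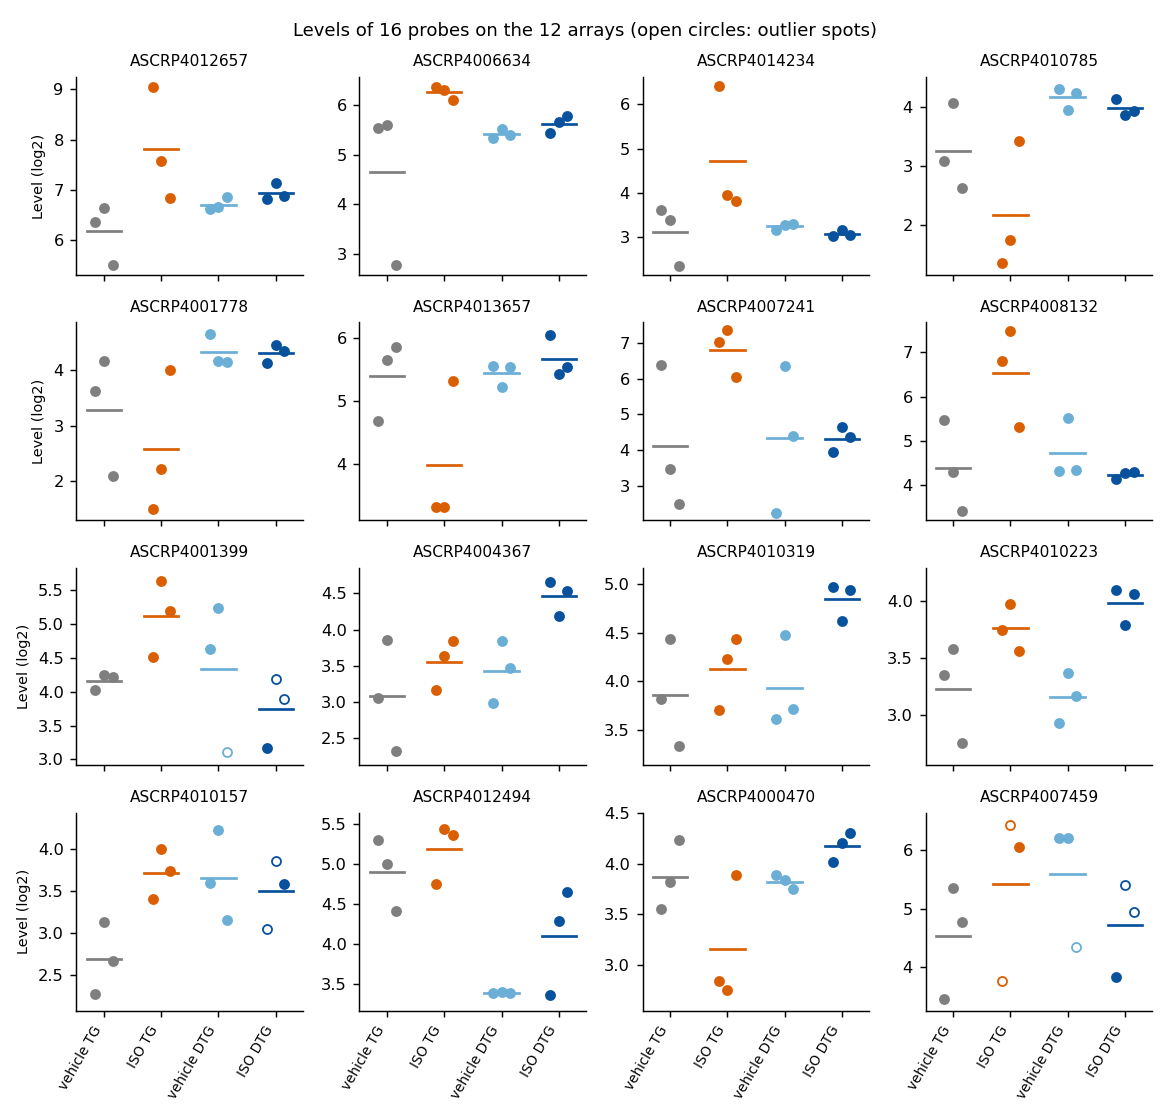
Each panel gives the level (log2 intensity minus the array's 75th percentile) of 1 probe named in comparisons I to IV or their interaction, with a point per array, open where the spot was marked as an outlier, and a line at the group mean of 3. Vertical axes differ between panels and do not start at 0. The ISO DTG points of ASCRP4008132 lie close together below ISO TG, and the vehicle DTG points of ASCRP4012494 lie below both TG groups.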

How the data were processed

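LV total RNA of 12 mice was treated with RNase R, amplified and labeled into Cy3-cRNA, and hybridized to 12 single-color Arraystar mouse circRNA arrays. The deposited files hold scanner intensity values from Agilent Feature Extraction 11.0.1.1, per the file headers background-subtracted by the authors' scanner software (processed signal) and given with median signals, local background and spot flags. The submitters' notes name limma, and the normalization is not given in the sources used here.

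From these intensities, the log2 processed signal minus the 75th percentile of the 14236 circRNA probes of each array was computed, and the 300 probes with the highest average were taken. These members, and the lists and limits, were chosen with earlier results of these data known. A member was named if it was among the 10 highest on average, among the 5 largest or 5 smallest SD over 12 arrays, among the last 3 members and the first 3 probes outside, or among the 3 largest positive and 3 largest negative differences of a comparison at 1.5-fold and an unadjusted p under 0.05, in I to IV also without overlap of the groups.

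Tests used limma 3.58.1 (lmFit and eBayes, 4 group means, all 12 arrays, R 4.3.3) on 13046 circRNA probes well above background on at least 3 arrays, with outlier spots left out and Benjamini-Hochberg adjustment over all probes tested. Each probe had 1 spread shared by the 4 groups. The ISO TG arrays enter both I and II, vehicle TG both I and IV, ISO DTG both II and III, and vehicle DTG both III and IV. Values of whole arrays were compared by exact permutation tests (scipy 1.17.1). In data simulated for comparison I with 200 of 13046 probes changed, a log2 change of 1 was recovered at an adjusted p under 0.05 in 0% and past the 1.5-fold and unadjusted limits in 70% of them, and a log2 change of 2 in 59% and 95%. The number of arrays, 3 per group, limits the precision.

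Alternatives were quantile normalization, scaling to the median of tested probes or to the 14 circRNA control probes, normexp background correction (offset 50), other filters, outlier spots kept, slide or replicate number as a block, fits of the 6 arrays compared, array weights, the methods' t-test, a 2-fold limit, other choices of the members and leaving out arrays. The files hold no mean signal, so the median signal was used wherever a mean signal had been planned.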

Additional observations from a re-analysis of the deposited data

Results flagged for a closer look

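Of the probes named here, ASCRP4014234 was the 1 for which all 3 ISO TG arrays lay above all vehicle TG arrays while all 3 ISO DTG arrays lay below all vehicle DTG arrays. Its isoproterenol difference in DTG minus that in TG was -1.77 on the log2 scale. The order within DTG is slight, since ISO DTG replicate 2 and vehicle DTG replicate 1 both read 3.17 and the 6 DTG arrays lay between 3.03 and 3.31. ISO TG replicate 1 read 6.41 against 3.96 and 3.83 on the other ISO TG arrays. The probe was named for its difference between the same TG arrays, so -1.77 is a description and was not tested on other arrays.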

How the results depend on the processing

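Counts of members past the 1.5-fold and unadjusted limits were 81 for comparison I, 81 for II, 7 for III, 7 for IV and 31 for the interaction. Quantile normalization gave 30 in I, 12 in III and 17 in the interaction, with a median of -0.038 in II. Scaling to control probes left 32 members in I, 2 members in III, 1 in IV and 7 in the interaction, with medians of -0.23 in I and -0.26 in III. Of all tested probes it gave 11 higher and 140 lower in III, and 13 and 340 in IV. Normexp left 36 members in I, 24 members in III, 1 in IV and 51 in the interaction, with medians of -0.050 in I, 0.32 in II and 0.34 in III. In IV it gave 2324 higher and 16 lower of all tested probes. Slide as a block gave 4 in II, 4 in III, 32 in IV and 4 in the interaction, with medians of 0.35 in II and 0.36 in III. In III the slide block gave 76 higher and 33 lower of all tested probes. Its slide term rests on vehicle DTG replicate 3 set against the other vehicle DTG arrays. Replicate numbers did not pair the arrays (correlations of deviations -0.37 to 0.36), and the replicate block gave 14 in IV and 49 in the interaction. Of all tested probes that block gave 69 higher and 187 lower in IV, and 264 and 611 in the interaction. Fits of 6 arrays had 33 members in I, 135 members in II (beside 1695 higher and 3215 lower over all tested probes) and 30 in III. Array weights gave 173 in II, 57 in III, 13 in IV and 146 in the interaction. By the methods' t-test 17 members passed in I, 23 passed in III and 2 in IV, and a 2-fold limit 3 in III. Of all tested probes the t-test gave 36 higher and 62 lower in IV, and the 2-fold limit 34 and 58 in III. No member passed the adjusted limit in the main analysis, whereas with array weights 61 passed it for comparison I, 153 for II, 24 for III, 0 for IV and 55 for the interaction. The weights ran from 0.087 for vehicle TG replicate 3 to 5.60 for vehicle DTG replicate 1. How many of all tested probes passed the adjusted limit with weights is not given here, so these counts are not read as particular to the members. Past the 1.5-fold and unadjusted limits, array weights gave 2783 higher and 1976 lower of all tested probes in I. The others had 2369 and 3816, 683 and 587, 284 and 420, and 1915 and 2666, in this order. The cause of these shifts was not tested.

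Leaving out 1 array at a time gave 39 (without ISO TG replicate 2) to 131 (without vehicle TG replicate 1) in I, 43 (without ISO TG replicate 2) to 131 (without vehicle TG replicate 3) in II, 3 (without vehicle DTG replicate 1) to 27 (without vehicle DTG replicate 3) in III, 2 (without vehicle DTG replicate 2) to 43 (without vehicle TG replicate 2) in IV, and 7 (without vehicle DTG replicate 2) to 75 (without vehicle DTG replicate 3) in the interaction. Over all tested probes, the counts at those ends of I were 535 higher and 282 lower, and 3212 and 1771. In II they were 671 and 1316, and 1861 and 2963. In III they were 46 and 49, and 95 and 153. For IV they were 43 and 294, and 335 and 682, and for the interaction 131 and 122, and 205 and 557. Medians of the members ranged over 0.33 to 0.93 in I, -0.41 to -0.21 in II, -0.10 to 0.16 in III and -0.00 to 0.71 in IV. Without vehicle TG replicate 3 and ISO TG replicate 3 together, chosen after seeing the data, 158 members passed in II, 24 in III, 25 in IV and 102 in the interaction. Over all tested probes 2622 were higher and 3755 lower in II, 365 and 261 in III, 353 and 589 in IV, and 1572 and 1318 in the interaction. The members' share differed in II by -2.86 points with local background subtracted from the median signal, -1.71 with the median signal, -7.12 with members chosen by mean linear share and -4.68 with outlier spots left out. Leaving out 1 array, it ranged over -0.818 to 12.2 points in I, -4.88 to 6.15 in II, -0.133 to 2.28 in III and 0.0321 to 9.87 in IV. The log2 fold changes of the members named in I to IV and the interaction kept their sign in all refits, and 382 stayed on the same side of the unadjusted limit while 77 no longer passed it. For ASCRP4001399 and ASCRP4007459 the slide block could not be fitted, since 1 spot was left on slide 1, so those values repeat the main ones by construction and are among the members counted under that block.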
